A study of Mus musculus with 12 samples.

Results

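The voltage-gated sodium and calcium channel genes are described here in the dentate gyrus (DG) and subventricular zone (SVZ) of mice that lack Dpy30 in a conditional knockout. Members were all genes in both expression tables named Scn with a number and A or B, Cacna1, Cacna2d, Cacnb or Cacng, whatever their values were. The rule was met by 35 of 17990 genes, and 33 of these are described, read from 115 transcript rows: 6 sodium channel alpha subunits, 3 sodium channel beta subunits, 9 calcium channel alpha-1 subunits, 4 alpha-2-delta subunits, 4 cytoplasmic beta subunits and 7 gamma subunits. Other genes of these families were not analysed here.

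The series holds 12 RNA-seq libraries in 4 groups of 3: DG control, DG KO, SVZ control and SVZ KO. Per the labels, each sample is tissue of one of these niches, holding stem and progenitor cells plus their neighbours. Controls carried the genotype hGFAP/+;Dpy30F/+ and KO animals hGFAP/+;Dpy30F/-. All 4 groups thus share the hGFAP transgene and a floxed Dpy30 allele, and the second allele is + in controls and - in KO animals. In such animals the - allele may be missing in every cell of the body, beyond the cells in which the hGFAP transgene acts. The labels give no age and do not say which exons are floxed, and nothing says whether a library came from 1 animal or from several. The p-values below are therefore set by library-to-library spread alone, part of which may be technical. The product of Dpy30 belongs to the core of the Set1/Mll complexes, which methylate lysine 4 of histone H3.

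Voltage-gated sodium channels open when a neuron depolarises and carry the upstroke of the action potential. Their large alpha subunit forms the pore, and the small single-pass beta subunits modify gating and act as adhesion molecules. Voltage-gated calcium channels couple depolarisation to transmitter release, dendritic calcium signals and gene expression. Their alpha-1 subunit forms the pore, the cytoplasmic beta subunit brings it to the membrane, and the alpha-2-delta subunit raises its surface level. Most gamma subunits of the brain are transmembrane AMPA receptor regulatory proteins (TARPs), which traffic and gate glutamate receptors.

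Levels are in FPKM, the fragments of a transcript per kilobase of its length and per unit of library size, after the authors' TMM scaling, with transcript rows summed per gene. The libraries of a group carry no replicate number in the tables and are called a, b and c. A gene was tested where its mean over the 6 libraries of a tissue reached 0.5 FPKM. The test was limma on log2(FPKM + 1), with p-values adjusted by Benjamini-Hochberg over all tested genes and a threshold of 0.05. Fold changes on that scale understate those of low genes. Error terms are SD over n = 3 libraries for levels and SE for log2 differences, which are always KO minus control.

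The Dpy30 level in the DG was 8.43, 8.38 and 10.1 FPKM for the controls against 6.22, 6.89 and 5.68 for the KO libraries (exact two-sided permutation p = 0.1, which is the floor for groups of 3). SVZ controls had 7.73, 8.25 and 9.43 FPKM, KO b and c had 5.04 and 4.87, and the library labelled KO a had 8.83, within the control range. The Dpy30 level of the library labelled SVZ KO a thus goes against its label, so SVZ tests are given with and without it. Summed markers of myelinating oligodendrocytes were 3729 FPKM in that library, between 2866 and 5700 FPKM in SVZ controls, and 242 and 189 FPKM in SVZ KO b and c. Other sums of that library were mixed. Striatal neuron markers (311 FPKM, against 304 to 441 in controls) and pan-neuronal markers (1411 FPKM, against 1296 to 1498) lay within the control range in that library. Its interneuron markers (329 FPKM, against 255 to 302 in controls) and astrocyte markers (228 FPKM, against 288 to 343) lay on the side of KO b and c. Whether its label is wrong was not tested. In the DG, KO libraries had more of the neural stem and progenitor markers (436 to 811 FPKM against 182 to 289) and less of the 6 pan-neuronal markers (962 to 1156 FPKM against 1220 to 1344). The 5 dentate granule neuron markers summed to only 42.7, 24.5 and 40.3 FPKM in DG controls a, b and c, and to 23.9 to 31.2 FPKM in SVZ controls. They did not set the tissues fully apart, as DG control b lay within the SVZ range. Of 15454 genes tested in the DG, 108 passed the threshold (0.699%). In the SVZ 1 of 15159 passed (0.0066%), and without the library labelled KO a 1317 did, 638 higher and 679 lower (4.21% and 4.48%).

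Promoter windows of the channel genes differ in their CpG content, and 3 are shown as examples: Cacng7, whose KO values in the DG were above all controls, and Scn8a and Scn2b, the CpG-richest window and one of the 2 CpG-poorest among members whose KO values were below all controls. RefSeq promoter windows of GRCm38.p6, running from 250 bases before to 50 bases after the start, were matched by symbol for 26 of the 33 members (37 windows). Of these 37 windows, 33 had their start within 200 bases of a start annotated in GENCODE M21. The 7 members without a match were Scn3a, Scn3b, Cacna1a, Cacna1g, Cacna1h, Cacna2d4 and Cacng4. The stretches shown are those bases of a window before its start that overlap no GENCODE exon, and that of Scn8a lies within the first intron of the gene's longest annotated transcript. They run 5′ to 3′ on the gene's strand, and have each CG dinucleotide in capitals. Cacng7 is shown for chr7:3332575-3332824 (plus strand), Scn2b for chr9:45117626-45117781 (plus strand) and Scn8a for chr15:100870395-100870644 (plus strand).
Cacng7: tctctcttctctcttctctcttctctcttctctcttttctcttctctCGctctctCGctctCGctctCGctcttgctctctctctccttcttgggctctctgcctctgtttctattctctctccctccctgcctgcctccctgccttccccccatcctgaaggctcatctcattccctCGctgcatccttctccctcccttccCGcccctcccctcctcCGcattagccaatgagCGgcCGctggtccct
Scn2b: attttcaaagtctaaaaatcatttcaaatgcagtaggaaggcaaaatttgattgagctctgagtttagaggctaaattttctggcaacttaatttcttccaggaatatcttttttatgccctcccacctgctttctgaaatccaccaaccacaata
Scn8a: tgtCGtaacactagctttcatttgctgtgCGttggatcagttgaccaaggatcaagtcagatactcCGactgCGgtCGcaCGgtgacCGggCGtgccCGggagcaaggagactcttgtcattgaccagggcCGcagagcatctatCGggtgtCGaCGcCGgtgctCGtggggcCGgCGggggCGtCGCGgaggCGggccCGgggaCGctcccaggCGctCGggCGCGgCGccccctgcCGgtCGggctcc
The Cacng7 stretch held 9 CG dinucleotides, the Scn2b stretch none, and the Scn8a stretch 30. Over whole 300-base windows, the counts were 15 for Cacng7, 2 for Scn2b and 38 for Scn8a. Cacna1d, the other tested member whose DG KO values were above all controls, had windows of 63 and 4 CG. Members had a median of 11 CG per window against 7 in all 32851 windows of the RefSeq table, and a GC share of 59.7% against 52.7%. At least 20 CG were found in 15 of the 37 member windows (40.5%) and in 26.5% of all windows. The letters TATAAA on either strand were found in 2 of the 37 member windows (5.41%), 1 each in Cacna1d and Scn2a, and in 13.6% of all windows. In the DG, the 14 tested members whose richest window held at least 20 CG had a median log2 difference of -0.09, and the 8 with fewer had -0.31. In the SVZ the medians were 0.11 over 14 members and -0.01 over 8. These are descriptions of letters in a window, and no test was made on them.

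Channel genes spanned 3 orders of magnitude in level. In control libraries of either tissue, 22 of the 33 members averaged at least 10 FPKM and 5 averaged under 1 FPKM. Cacnb3, the calcium channel beta-3 subunit, was among the most abundant in both tissues (66.8 ± 4.82 FPKM in DG controls and 69.0 ± 12.3 in SVZ controls, SD, n = 3), as was Cacng7, the TARP gamma-7 (49.3 ± 6.28 and 56.3 ± 8.85 FPKM). Of the 32 pairs of neighbours in the order of control means, only 4 in each tissue had all 3 libraries of the upper gene above all 3 of the lower. In the DG these were the steps from Cacnb3 to Cacng7, Scn2b to Cacna1b, Scn3a to Cacna1d and Cacng5 to Scn9a. In the other pairs the libraries of the neighbours overlapped. The DG and SVZ tables were scaled separately, so levels are set side by side across tissues and not tested.

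**Figure D1:**
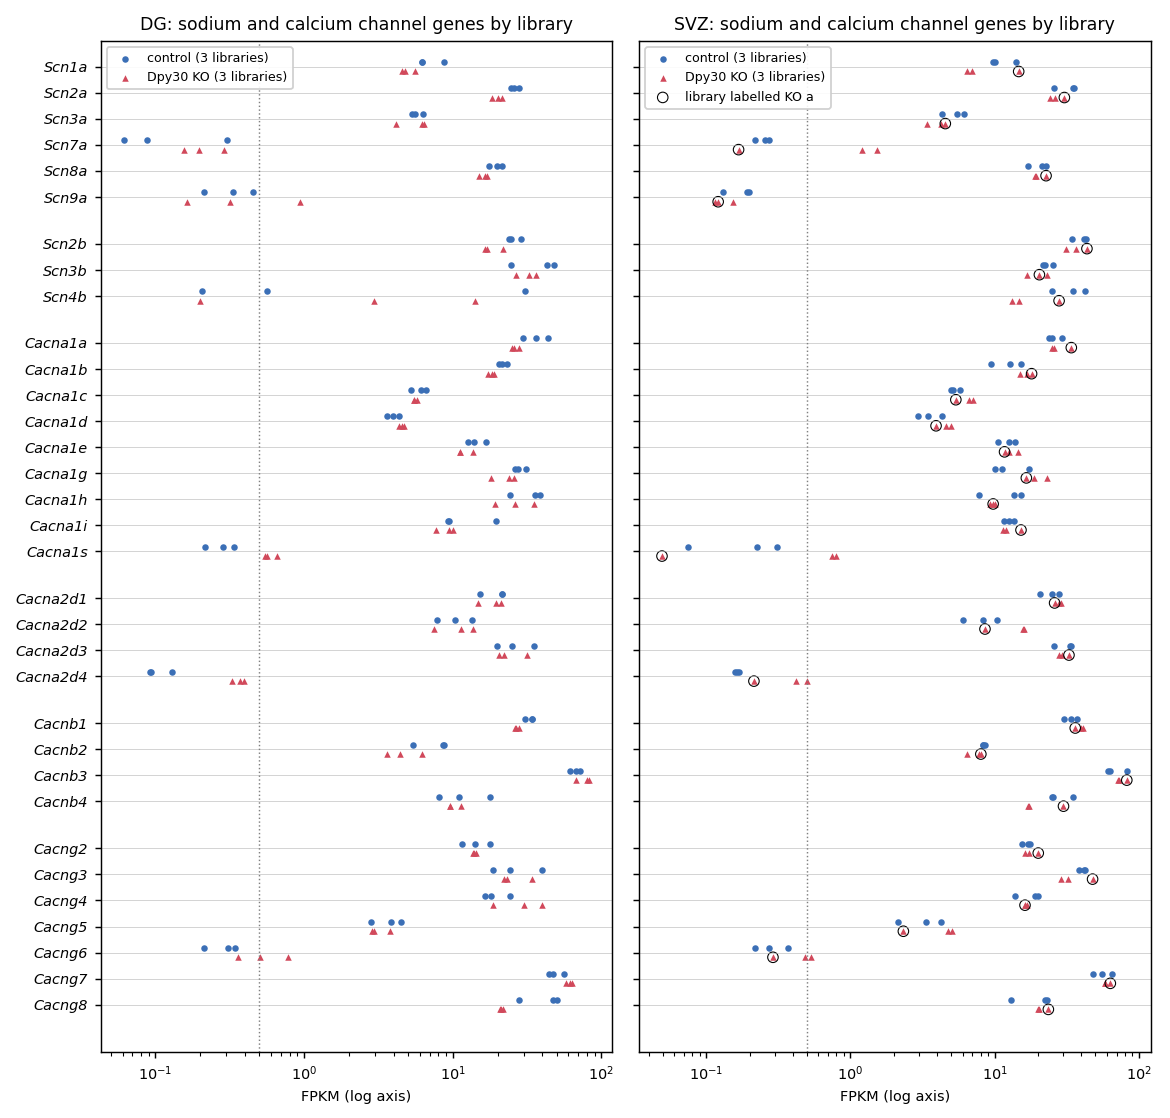
FPKM of 33 sodium and calcium channel genes in every library, on a log axis, with DG on the left and SVZ on the right (circles control, triangles KO, dotted line the 0.5 FPKM used for testing). Cacnb3 lies at 61.7 to 82.7 FPKM in the DG and 61.1 to 83.1 FPKM in the SVZ, and the ringed library labelled SVZ KO a lies apart from KO b and c for Scn7a, Scn4b, Cacna2d2 and Cacnb4.

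Among the pore-forming sodium channel subunits, Scn2a and Scn8a made up most of the summed level of the 6 alpha subunits described, in every group. Scn2a encodes Nav1.2, a channel of unmyelinated axons and of axon initial segments early in life, and Scn8a encodes Nav1.6 of mature initial segments and nodes of Ranvier. Scn2a held 44.2 ± 2.95% of that sum in DG controls and 42.2 ± 3.74% in DG KO, and Scn8a 33.4 ± 2.96% and 34.2 ± 2.49%. Scn1a, the Nav1.1 channel of fast-spiking interneurons, and Scn3a, the Nav1.3 channel of the embryonic brain, were lower at 7.05 ± 1.44 and 5.72 ± 0.549 FPKM in DG controls. Scn7a (Nax, a sodium-level sensor of glia and circumventricular organs) and Scn9a (Nav1.7 of sensory neurons) stayed at or under 0.938 FPKM in all 6 DG libraries. The alpha-1 family split into 46.3 ± 1.52% Cav2 (Cacna1a, Cacna1b and Cacna1e, the presynaptic channels) and 47.1 ± 1.17% Cav3 (Cacna1g, Cacna1h and Cacna1i, the low-voltage T-type channels) in DG controls. Cav1, the L-type channels Cacna1c, Cacna1d and Cacna1s, held 6.54 ± 0.603%. In SVZ controls the Cav2, Cav3 and Cav1 shares were 52.3 ± 2.96%, 38.4 ± 3.80% and 9.31 ± 0.842%.

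**Figure D2:**
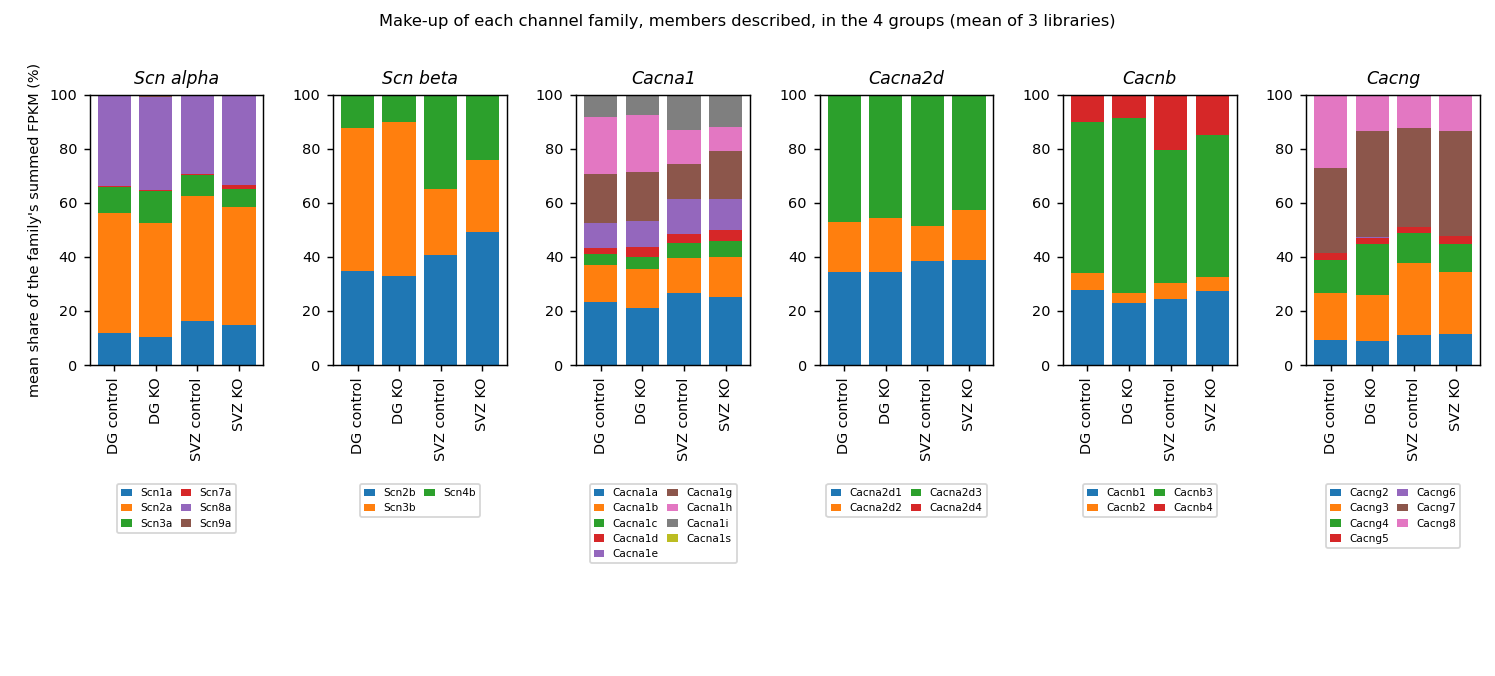
Share of the summed FPKM of a family's described members held by each of them, as the mean of 3 libraries in the 4 groups, the library labelled SVZ KO a included (stacked bars, percent). Scn2a takes the largest part of the sodium channel alpha subunits in all groups, 44.2% in DG controls and 42.2% in DG KO, and Cacng8 goes from 27.0% of the gamma subunits in DG controls to 13.6% in DG KO.

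In the DG, no channel gene passed the threshold: 0 of 28 tested, against 0.699% of all tested genes. At an unadjusted p under 0.05, 9 members were lower in KO (32.1%, against 6.94% of all genes) and 1 was higher (3.57%, against 19.5%). The 3 KO values lay below the 3 control values for 9 members, which were Scn1a, Scn2a, Scn8a, Scn2b, Cacna1a, Cacna1b, Cacna1g, Cacnb1 and Cacng8 (32.1%, against 7.82% of all genes). They lay above for 2 tested members, Cacna1d and Cacng7 (7.14%, against 25.9%). The log2 difference was negative for 22 of 28 members, with a median of -0.20 against 0.09 over all tested genes. By family the median was -0.32 for the 4 tested sodium channel alpha subunits, -0.22 for the 3 beta subunits, -0.27 for the 8 alpha-1 subunits, -0.06 for the 3 alpha-2-delta subunits, -0.23 for the 4 calcium channel beta subunits and -0.02 for the 6 gamma subunits. The summed pan-neuronal markers, as given above, were lower in all 3 KO libraries as well, as were myelin markers (119 to 125 FPKM against 232 to 2319) and oligodendrocyte precursor markers (42.1 to 49.7 FPKM against 65.5 to 75.7), and their part in these values was not tested. In tissue RNA, fewer cells of a type and less RNA per cell cannot be told apart.

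Scn2b, the beta-2 subunit that is disulphide-linked to the alpha subunit, was 24.8, 29.0 and 23.9 FPKM in DG controls and 21.7, 16.6 and 17.1 in KO (log2 difference -0.47, SE 0.13, adjusted p = 0.0890 in limma). The groups did not overlap, and KO a was the KO library nearest to the controls. Scn3b, the beta-3 subunit prominent in hippocampus, averaged 38.6 ± 12.4 FPKM in controls and 31.9 ± 4.81 in KO, with overlapping groups. Scn4b, which supports resurgent current, had no group pattern in the DG: it was 0.21, 30.4 and 0.57 FPKM in controls and 0.20, 2.96 and 14.0 in KO. The libraries with high Scn4b, control b and KO b and c, were those with high summed striatal neuron markers (547, 239 and 520 FPKM, against 17.9 to 30.7 FPKM in the other 3 DG libraries). Every one of the 6 striatal markers in the tables was above 0.1 FPKM in at least 1 library of each DG group. Their part in other DG values was not tested.

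The pore-forming Scn2a was 27.9, 25.7 and 24.6 FPKM in DG controls and 20.1, 21.4 and 18.3 in KO. Its groups were tight and did not overlap, with a ratio of KO to control means of 0.765 (log2 -0.37, SE 0.09, limma adjusted p = 0.0722). Scn1a was 6.24, 8.72 and 6.20 FPKM in controls and 4.58, 4.75 and 5.57 in KO (-0.42, SE 0.14, adjusted p = 0.130 in limma). Scn8a averaged 19.7 ± 1.96 and 16.2 ± 1.06 FPKM (-0.27, SE 0.10). Scn3a was near 0: its 95% interval ran from -0.43 to 0.33 around a log2 difference of -0.05. The summed FPKM of the alpha subunits described was 56.4 to 61.8 in the 3 DG controls and 45.7 to 48.4 in the 3 DG KO libraries.

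Of the calcium channel pores, Cacna1a, the P/Q-type channel of most fast central synapses, was 29.6, 43.7 and 36.5 FPKM in DG controls and 28.1, 25.8 and 25.0 in KO. All KO values lay below all controls, control a being the nearest, and the log2 difference was -0.45 (SE 0.14, limma adjusted p = 0.116). Protein-coding transcripts held only 51.7% of Cacna1a FPKM, and their sum was 15.4, 23.2 and 19.0 FPKM in controls and 13.7, 13.4 and 12.7 in KO. Cacna1b, the N-type channel, was 21.7 ± 1.47 FPKM in controls and 18.2 ± 0.858 in KO (-0.24, SE 0.08). Cacna1g, the T-type channel Cav3.1 of thalamic and other bursting neurons, was 27.3, 31.3 and 26.2 FPKM in controls and 18.2, 23.9 and 25.7 in KO, without overlap but with KO c close to the lowest control. Of the 2 L-type genes tested, Cacna1c had a log2 difference of -0.09 (95% interval -0.31 to 0.14), and Cacna1d was higher in all 3 KO libraries, at 4.55 ± 0.189 against 3.97 ± 0.348 FPKM (0.16, SE 0.09). The summed alpha-1 FPKM was 153 to 162 in controls and 116 to 135 in KO.

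Among the auxiliary calcium channel subunits, Cacnb1, the beta-1 subunit that also serves skeletal muscle, was 34.3, 34.1 and 30.6 FPKM in DG controls and 27.9, 26.5 and 26.1 in KO (log2 -0.29, SE 0.07, limma adjusted p = 0.0846), with no overlap. Cacnb2 was 8.62, 5.40 and 8.71 FPKM in controls and 6.18, 3.62 and 4.39 in KO, overlapping through control b. Cacnb3, the most abundant member of its family, was 67.4, 71.3 and 61.7 FPKM in controls and 82.7, 79.4 and 67.4 in KO (0.19, 95% interval -0.06 to 0.44). Its share of the summed beta subunits was 55.8 ± 0.977% in controls and 64.6 ± 1.95% in KO. The alpha-2-delta genes overlapped throughout: Cacna2d3, the most abundant, was 19.95, 35.4 and 25.1 FPKM in controls and 22.2, 20.4 and 31.6 in KO (log2 -0.10, 95% interval -0.67 to 0.47).

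Gamma subunits Cacng7 and Cacng8 lie next to each other on chromosome 7 (GRCm38, GENCODE M21: Cacng7 at chr7:3332955-3368221 and Cacng8 at chr7:3390683-3415648, both on the plus strand, 22.5 kb apart with no protein-coding gene between), and differed in opposite directions in the DG. Cacng8, the TARP gamma-8 that governs AMPA receptor number in hippocampal neurons, was 47.1, 27.8 and 50.2 FPKM in controls and 20.9, 21.7 and 21.1 in KO. The KO libraries were almost alike, and control b lay much nearer to them than controls a and c did. The KO mean of 21.2 ± 0.396 FPKM was 0.509 of the control mean of 41.7 ± 12.2 (log2 -0.90, SE 0.21, limma adjusted p = 0.0748). Striatal markers were high in control b, the control with the lowest Cacng8, and in KO b and c, and their part was not tested. Without control b the difference was -1.16 (SE 0.08), and leaving out the lowest control had to enlarge it. In the DG it was the only channel gene difference to pass the threshold under any alternative (limma adjusted p = 0.0345). Granule neuron markers were lower in the KO libraries too, at 13.5 to 19.7 FPKM against 24.5 to 42.7, and control b was the lowest of the controls. Those markers did not set the DG fully apart from the SVZ, through control b, as given above. CA pyramidal neuron markers overlapped between the DG groups, at 113 to 192 FPKM in controls and 93.6 to 140 in KO. The part of either marker list in the Cacng8 difference was not tested. Cacng7 was 44.2, 56.3 and 47.3 FPKM in controls and 63.7, 61.6 and 58.0 in KO (0.31, SE 0.10, adjusted p = 0.128 in limma). The gamma family summed to 150.0 to 169 FPKM in controls and to 154 to 159 FPKM in KO, with overlap. Cacng2 (stargazin, -0.03) and Cacng3 (-0.02) were near 0, with 95% intervals of -0.38 to 0.32 and -0.72 to 0.68. Cacng4, the gamma-4 TARP of the developing brain, was 18.03, 24.2 and 16.5 FPKM in controls and 18.8, 30.2 and 39.6 in KO (0.52, SE 0.27).

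**Figure D3:**
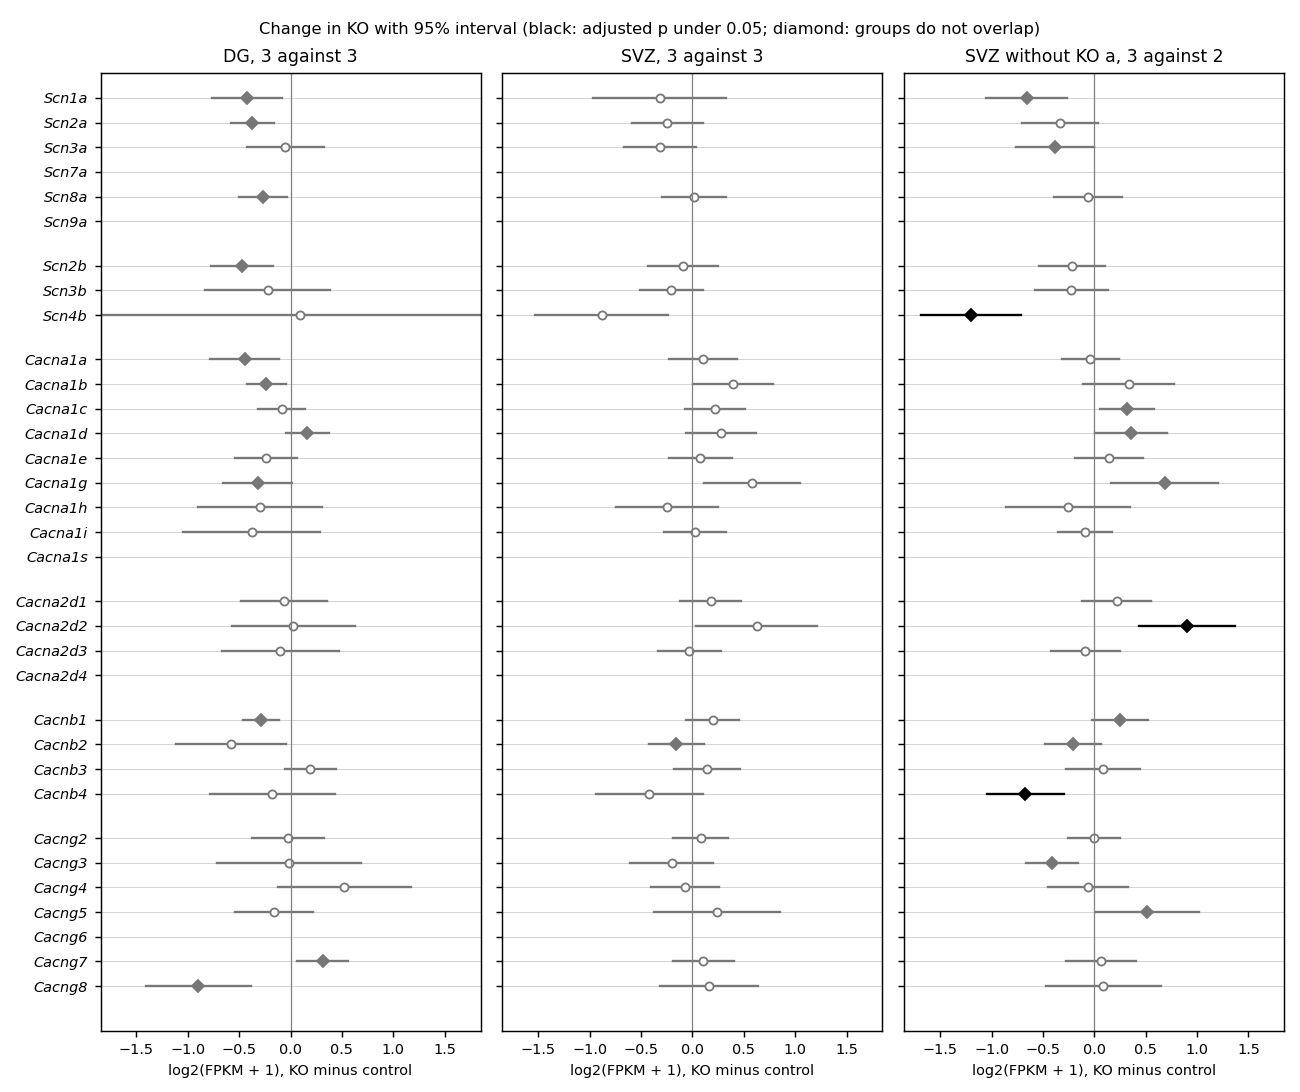
Log2(FPKM + 1) difference, KO minus control, of 28 channel genes in each tissue with its 95% interval, the third panel being the SVZ without the library labelled KO a (filled diamonds, groups that do not overlap; black, adjusted p under 0.05). The DG interval of Scn4b runs past the axis, from -3.33 to 3.51, and black appears only in the third panel, for Scn4b, Cacna2d2 and Cacnb4.

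In the DG, 5 members averaged under 0.5 FPKM and were not tested: Scn7a, Scn9a, Cacna1s, Cacna2d4 and Cacng6. Cacna2d4, the alpha-2-delta-4 subunit of retinal photoreceptors, is named after its values were seen. It was 0.0929, 0.129 and 0.0921 FPKM in DG controls and 0.391, 0.371 and 0.329 in KO, a ratio of means of 3.47. About 20 to 22 reads stood behind each of those control values, estimated from the step between low FPKM values. With no filter on low values its log2(FPKM + 1) difference was 0.30 (SE 0.05, limma adjusted p = 0.0553). In the authors' deposited table it was 3.47-fold higher in KO (p = 0.000422, FDR 0.0982). In the SVZ, controls had 0.157 to 0.169 FPKM, KO b and c 0.499 and 0.418, and the library labelled KO a 0.214. Cacna1s, the skeletal muscle L-type channel, was also higher in all 3 DG KO libraries (0.546 to 0.660 FPKM against 0.215 to 0.338). Its only row in the tables is a processed transcript of 1001 bases that encodes no protein, and an annotated antisense gene overlaps part of the gene's exons. The 2 of 4 listed skeletal muscle markers that were in the tables summed to no more than 3.64 FPKM in any library. Cacng6 was higher in all 3 DG KO libraries as well (0.359 to 0.781 FPKM against 0.213 to 0.341 in controls).

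In the SVZ, with all 6 libraries, 0 of 28 tested channel genes passed the threshold (0.0066% of all genes did). Scn7a reached the filter on low values only through 2 KO libraries and is left out of the SVZ tests. At an unadjusted p under 0.05, 3 members were higher in KO (Cacna1b, Cacna1g and Cacna2d2; 10.7%, against 5.79% of all genes) and 1 was lower (Scn4b; 3.57%, against 6.84%). Non-overlapping groups were found for 0 tested members above their controls (against 7.86% of all genes) and for Cacnb2 below (3.57%, against 7.78%). The median log2 difference was 0.05, and 0.03 over all genes, with 12 of 28 negative. Without the library labelled KO a the median was -0.05, with 16 of 28 negative, and over all genes it was 0.06.

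The difference of the KO effect between the tissues was tested in a limma model of 14922 genes over all 12 libraries. Of the 28 members in that model, 0 passed the threshold, as did 0.0335% of all genes, and 5 were at an unadjusted p under 0.05 (17.9%, against 15.9% of all genes). These 5 were Cacng8 (1.06, SE 0.33, adjusted p = 0.166), Cacna1g (0.90, SE 0.27, adjusted p = 0.158), Cacna1b (0.63, SE 0.20, adjusted p = 0.171), Cacna1a (0.55, SE 0.21, adjusted p = 0.249) and Cacnb1 (0.49, SE 0.13, adjusted p = 0.135), where each value is the SVZ difference minus the DG difference on the log2 scale. Without the library labelled SVZ KO a the values were 0.98 (SE 0.36), 1.01 (SE 0.28), 0.57 (SE 0.21), 0.41 (SE 0.20) and 0.53 (SE 0.13), in the same order of genes. Of the 28 members 0 then passed (0.429% of all genes did) and 7 were at an unadjusted p under 0.05 (25%, against 18.4%), Cacna1a not among them. In all 5 genes the KO values lay below the controls in the DG. Their SVZ groups overlapped with all 6 libraries, and without KO a those of Cacna1g and Cacnb1 did not. The SVZ pan-neuronal markers overlapped between groups, at 1296 to 1498 FPKM in controls and 1384 to 1479 in KO.

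**Figure D4:**
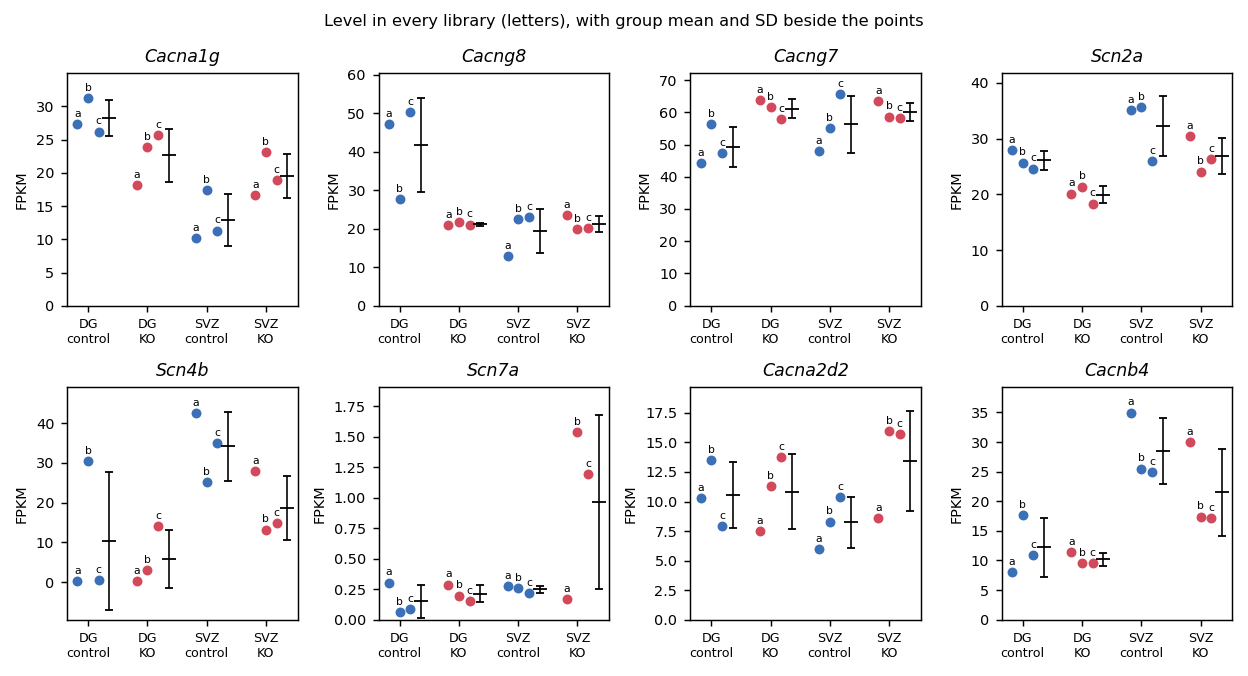
FPKM of 8 channel genes in every library (letters a, b and c), with the group mean and SD beside the points; DG and SVZ values come from separately scaled tables. Cacng8 lies below its controls in the DG KO (20.9 to 21.7 FPKM) and overlaps them in the SVZ, and the library labelled SVZ KO a lies among the controls for Scn4b, Cacna2d2 and Cacnb4 and below them for Scn7a.

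Without the library labelled KO a, 3 of 28 channel genes passed the threshold in the SVZ, Cacna2d2 being higher and Scn4b and Cacnb4 lower (3.57% and 7.14%, against 4.21% and 4.48% of all genes). They are named because they passed there, after their values were seen, and with 2 KO libraries. The groups did not overlap for 6 tested members that were higher and 6 that were lower (21.4% each, against 30.8% and 19.1% of all genes).

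Scn7a was 0.275, 0.257 and 0.219 FPKM in SVZ controls, 0.168 in the library labelled KO a, and 1.54 and 1.20 in KO b and c. KO b and c lay above all other SVZ libraries, and KO a was the lowest. About 70 to 89 reads stood behind each control value and 439 to 491 behind KO b and c. With no filter on low values, the difference over all 6 libraries was 0.58 (SE 0.25, limma adjusted p = 0.408). Scn7a stayed at 0.0612 to 0.304 FPKM in the DG.

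Cacna2d2, the alpha-2-delta-2 subunit that is mutated in ducky mice with absence epilepsy, was 6.00, 8.30 and 10.4 FPKM in SVZ controls, 8.57 in the library labelled KO a, and 16.0 and 15.7 in KO b and c. The log2 difference was 0.90 without KO a (SE 0.20, limma adjusted p = 0.0392) and 0.63 with it (SE 0.26, adjusted p = 0.385 in limma). Protein-coding transcripts held 76.8% of its SVZ FPKM and showed the same order, with 5.43 to 6.83 FPKM in controls, 6.60 in the library labelled KO a, and 11.7 and 12.9 in KO b and c. Interneuron markers were higher in all 3 SVZ KO libraries (329 to 404 FPKM against 255 to 302), and their part was not tested.

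The lower pair were Scn4b and Cacnb4. Scn4b was 42.6, 25.2 and 34.9 FPKM in SVZ controls, 28.0 in the library labelled KO a, and 13.2 and 14.8 in KO b and c (log2 -1.20 without KO a, SE 0.21, limma adjusted p = 0.0206; -0.88 with it, adjusted p = 0.367). The striatal markers summed to 304 to 441 FPKM in controls, 311 in the library labelled KO a, and 238 and 219 in KO b and c, so KO b and c had the lowest values of both. Their part in the Scn4b difference was not tested. Cacnb4, the beta-4 subunit that is lost in lethargic mice, was 35.0, 25.5 and 25.0 FPKM in SVZ controls, 30.02 in the library labelled KO a, and 17.4 and 17.2 in KO b and c (-0.67 without KO a, SE 0.16, limma adjusted p = 0.0475; -0.42 with it, adjusted p = 0.456). Unstranded reads of Cacnb4 could include a transcript on the opposite strand that shares 16.0% of its exon bases and stood at 0.405 FPKM in the SVZ. Myelin markers, as given above, were far lower in KO b and c than in the other SVZ libraries, as were oligodendrocyte precursor markers (33.8 and 29.9 FPKM, against 50.9 in the library labelled KO a and 54.8 to 66.6 in controls). Astrocyte markers summed to 288 to 343 FPKM in SVZ controls, 228 in the library labelled KO a, and 176 and 186 in KO b and c. The part of these markers in the SVZ differences was not tested.

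**Figure D5:**
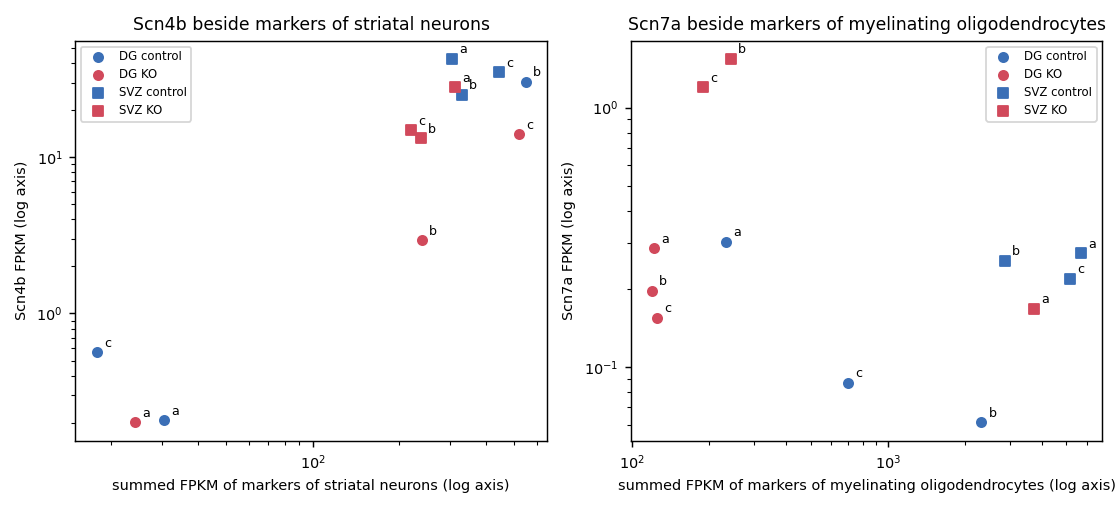
Scn4b FPKM beside the summed FPKM of striatal neuron markers (left) and Scn7a FPKM beside that of myelinating oligodendrocyte markers (right), 1 point per library on log axes, letters naming the library; DG and SVZ tables were scaled separately. The 3 DG libraries with striatal sums under 31 FPKM have Scn4b under 0.6 FPKM, and SVZ KO b and c have the highest Scn7a and the lowest myelin sums of the SVZ. The DG KO libraries have myelin sums of only 119 to 125 FPKM but low Scn7a, at 0.155 to 0.287 FPKM.

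The other SVZ members named for their level or their DG difference had overlapping groups with all 6 libraries, except Cacnb2. Scn2a, the most abundant alpha subunit there as well, was 35.1, 35.6 and 25.98 FPKM in controls and 30.4, 24.1 and 26.3 in KO (log2 -0.24, 95% interval -0.59 to 0.10; -0.33 without KO a). Cacna1a was 25.0, 29.1 and 23.9 FPKM in controls and 34.01, 25.6 and 24.9 in KO (0.10, 95% interval -0.23 to 0.43); without KO a the difference was -0.04, of the other sign (95% interval -0.31 to 0.24). Cacng8 was 12.9, 22.4 and 23.1 FPKM in controls and 23.6, 19.98 and 20.2 in KO (0.16, 95% interval -0.32 to 0.64; 0.09 without KO a). Its share of the gamma subunits was 12.4 ± 2.36% in SVZ controls and 13.6% in each SVZ KO library. Cacng7 (0.10, 95% interval -0.19 to 0.40), Cacnb3 (0.15, 95% interval -0.18 to 0.47), Cacna2d3 (-0.03, 95% interval -0.34 to 0.28) and Scn2b (-0.10, 95% interval -0.44 to 0.25) had intervals that include 0. Without KO a these 4 differences were 0.07, 0.08, -0.09 and -0.22, again with intervals that include 0. Scn1a split its KO libraries: it was 14.1, 10.1 and 9.68 FPKM in controls, 14.7 in the library labelled KO a, and 6.42 and 6.94 in KO b and c (-0.32, SE 0.28, limma adjusted p = 0.642; -0.66 without KO a, SE 0.17, adjusted p = 0.0576). Cacnb2 was 8.596, 8.24 and 8.25 FPKM in controls and 8.02, 6.45 and 7.79 in KO, a non-overlapping difference with a ratio of means of 0.888 (-0.16, SE 0.12; -0.21 without KO a). Cacna1g was 10.1, 17.4 and 11.3 FPKM in controls and 16.6, 23.1 and 18.9 in KO (0.58, SE 0.20, adjusted p = 0.367 in limma; 0.68 without KO a, SE 0.22, adjusted p = 0.104). Its protein-coding rows, which held 60.2% of its SVZ FPKM, did not overlap: 6.03, 10.1 and 7.12 FPKM in controls and 10.99, 12.99 and 11.3 in KO, while in the DG they were 14.5, 15.0 and 12.5 in controls and 7.96, 10.6 and 11.8 in KO. In the SVZ, Scn9a, Cacna1s, Cacna2d4 and Cacng6 were below the filter.

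The 33 members lie on 11 chromosomes, in part as neighbours. Scn3a, Scn2a, Scn1a, Scn9a and Scn7a follow each other on chromosome 2 between 65457118 and 66784914 (GRCm38), with 3 protein-coding genes between Scn2a and Scn1a and none in the other gaps. Within this cluster the DG log2 differences of the 3 tested genes were -0.05 for Scn3a, -0.37 for Scn2a and -0.42 for Scn1a, and the SVZ differences were -0.32, -0.24 and -0.32, or -0.38, -0.33 and -0.66 without KO a. Scn2b and Scn4b lie 8.3 kb apart on chromosome 9 and did not share a pattern in the DG, where only Scn2b had groups that did not overlap. Cacng4 and Cacng5 lie 80.0 kb apart on chromosome 11. Their DG log2 differences of 0.52 and -0.16 both had 95% intervals that include 0.

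A list of 41 partners of the channels, which anchor, inhibit or couple them, was followed alongside, and 40 were in the tables. In the DG, 0 of 39 tested passed the threshold (0.699% of all genes did) and 33 were negative (34.7% of all genes were). Their median log2 difference was -0.21, against 0.09 over all genes. The largest differences were those of Fgf13, an intracellular partner of the sodium channel C-terminus (82.6, 43.7 and 91.0 FPKM in controls and 53.7, 43.0 and 34.3 in KO; -0.67, SE 0.30, limma adjusted p = 0.206), and of Stac2, an L-type channel adaptor. Stac2 was 7.30, 8.81 and 7.28 FPKM in controls and 4.21, 3.68 and 6.26 in KO, without overlap (-0.64, SE 0.18, limma adjusted p = 0.0902). In the SVZ 0 of 37 passed (0.0066% of all genes did), with a median of -0.02 against 0.03 over all genes. The largest difference there was that of Rrad, a small GTPase that inhibits calcium channels by binding the beta subunit. Rrad was 0.517, 0.804 and 0.786 FPKM in controls and 0.874, 2.48 and 2.19 in KO (0.70, SE 0.23, limma adjusted p = 0.367). Gem, a GTPase of the same kind that reached the filter only through its controls and is not tested here, was 0.957, 1.10 and 1.34 FPKM in controls and 0.610, 0.0151 and 0.595 in KO. Without the library labelled KO a, 2 of the 37 were called higher and 2 lower, against 4.21% and 4.48% of all genes. Rrad (0.97) and Rimbp2 (0.55), which tethers calcium channels at release sites, were higher. Rims2 (-0.75), another active-zone scaffold, and Cabp1 (-0.62), a calcium-binding regulator of Cav channels, were lower.

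At the level of single transcripts, 0 of 85 channel rows passed the threshold in the DG and 0 of 87 in the SVZ by limma, where 0.00319% and 0.00335% of all rows passed. At an unadjusted p under 0.05 there were 19 of the 85 in the DG, where 18.5% of all rows were. In the SVZ there were 7 of the 87, where 8.7% of all rows were. The authors' deposited table gives none of the 115 rows of the members an FDR under 0.05 in either tissue, and 0.0321% of all rows in the DG and 0.00247% in the SVZ. Protein-coding rows held at least 90% of the FPKM for 26 of 33 members in the DG and 27 in the SVZ.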

How the data were processed

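RNA-seq was made from 12 mouse libraries, 3 in each group of tissue and genotype. Per the labels' protocols, total RNA went through 2 rounds of polyA selection before library preparation. CASAVA 1.8.4, TopHat2 2.1.0, Partek and the mouse build GRCm38 (mm10) are named in the submitters' processing notes. Per the file headers and names, the authors deposited TMM-scaled FPKM per transcript and library, under gene names only, and a table per transcript with a fold-change score (control over KO where positive, minus KO over control where negative), the p-value and the step-up FDR (q-value). Rows of the FPKM tables were joined to transcript names through the gene name and that table's group means (relative tolerance 0.0001; 89 rows through the means alone), all 40483 rows in each tissue finding a match, and were summed by gene ID to 17990 genes.

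Tests used R 4.3.3 and limma 3.58.1 (linear models moderated with an intensity trend) on log2(FPKM + 1), per tissue, over genes of at least 0.5 FPKM on average, with Benjamini-Hochberg adjustment. A listed gene whose mean reached that level in 1 group only (Scn7a and Gem in the SVZ) had to differ to be tested. The filtered tests therefore leave it out, a choice made after seeing the data. For Scn7a the fit with no filter is given instead. A model of all 12 libraries tested the difference of the KO effect between tissues. No count test was made. Where the low FPKM values stepped clearly by whole reads (9 of 12 libraries), 1 FPKM in a 1 kb transcript was worth 26.6 to 50.0 reads, but only 51.0% to 65.0% of values lay within 0.1 of a whole number (20% by chance), so reads were not recovered and total depth is unknown. Named genes were members past the threshold, the 6 largest differences per tissue among members whose groups did not overlap, and the highest member of each family; other genes were named after their values were seen. Members, lists and tests were chosen with earlier results of these data known. Alternatives were the pseudocount, the filter, centring, quantile normalization, no trend, a sex term from Xist and Y-linked genes, and leaving out each library. Promoter windows are from RefSeq (GRCm38.p6) and gene positions from GENCODE M21 (GRCm38). Whether counting used strand was not stated. Results of 2 members are not reported here; their rows stayed in the fits over all genes, and shares and sums of a family are over the members described.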

Additional observations from a re-analysis of the deposited data

How the results depend on the processing

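In the DG, 0 channel genes passed the threshold under every alternative but that without control b, where Cacng8 did (range over libraries left out 0 to 1). In the SVZ the range was 0 to 3, the 3 being reached without the library labelled KO a, and for the difference between tissues the count was 0 under every alternative. The limma counts of 0 stood beside 10 channel genes at an unadjusted p under 0.05 in the DG (35.7%, against 26.5% of all genes). There were 4 in the SVZ (14.3%, against 12.6%) and 5 for the difference (17.9%, against 15.9%). The DG median log2 difference was -0.20, with a range over libraries left out of -0.24 to -0.17. It was -0.10 with no filter on low values, where the 5 members under the filter enter, and -0.28 with median centring; the median of all genes then went from 0.09 to 0.08 and to 0.01. The SVZ median of 0.051 ranged from -0.050 (without KO a) to 0.075 over libraries left out, and the cause was not tested. Dpy30 in the SVZ had a log2 difference of -0.42, with a range over libraries left out of -0.67 to -0.29. It passed without KO a (limma adjusted p = 0.0230). KO a was singled out by its Dpy30 level, so that pass follows from the choice and carries no weight. In the DG the Dpy30 difference was -0.46. Of 390 alternative values for 30 differences of single channel genes, 386 stayed on the same side of the threshold and 4 newly passed it. For 10 of the 30, none of them past the threshold, at least 1 alternative gave the other sign. In the SVZ the sex term gave the same values as leaving out control a, its only female library. In the DG the sex term left the medians of channel genes and of all genes unchanged. The alternatives counted are therefore not all separate checks.

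No paired analysis was possible because the table columns carry no replicate numbers. The 3 libraries per group limit the precision, and with total depth unknown no count interval can be given.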
